A study of Homo sapiens with 4 samples.

Results

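Tight junction genes were followed in BEAS-2B cells exposed to cadmium. The set held 9 genes chosen by name among the 25411 gene rows of the tables: the claudin genes CLDN1, CLDN3, CLDN4 and CLDN7, the membrane protein genes OCLN, MARVELD2 and F11R, and the scaffold genes TJP1 and TJP3. BEAS-2B is a virus-transformed line derived from human bronchial epithelium, kept in Dulbecco's modified Eagle's medium. The 2 cadmium libraries came from cells cultured for 72 h with 5 µM cadmium chloride, and the 2 control libraries from cells grown for 72 h without it. The labels place the cadmium cultures under a second experiment number and the controls under the first, so treatment and experiment cannot be told apart. They do not say that the replicates were separate cultures, so each p-value below is set against a spread between libraries that may be technical.

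Tight junctions seal the space between neighbouring epithelial cells near their apical side. Claudins form the sealing strands and set which ions and solutes pass between cells, while occludin (OCLN) and tricellulin (MARVELD2) are companion membrane proteins of the strands and of the corners where cells meet. F11R encodes JAM-A, an immunoglobulin-type adhesion protein, and the TJP genes encode the zonula occludens scaffolds that tie these proteins to the actin cytoskeleton. In airway epithelium these junctions form part of the barrier to inhaled material.

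The libraries held 29937242 and 15537382 reads assigned to genes in cadmium replicates 1 and 2, against 26529403 and 8609243 reads in control replicates 1 and 2. A count of 3 reads corresponded to 0.0980 and 0.190 CPM (read counts scaled to library size) in the cadmium libraries, against 0.115 and 0.356 CPM in the controls, which covers counting error only. The replicates were not copies of a library: the mean chi-square between them was 7.72 per gene for cadmium and 11.8 for control. Of 10 epithelial markers, TP63 had no read in any library and KRT5 and KRT14 had 1 read each in all libraries together. CDH1, encoding E-cadherin, had 28 and 15 reads in the cadmium libraries, against 11 and 1 in the controls, whereas the simple-epithelium keratin KRT8 had 587 and 617 CPM with cadmium, against 540 and 649 CPM in controls. The basal cell keratin KRT17 had 118 and 74.2 CPM with cadmium, against 21.2 and 38.5 CPM in controls, and did not pass (edgeR, adjusted p = 0.0840). KRT15, another basal cell keratin, had 31 and 11 reads with cadmium, against 4 and 1 in controls, and rose (edgeR, adjusted p = 0.0246). The mesenchymal marker VIM stood at 2487 and 2506 CPM with cadmium, against 2726 and 2377 CPM in controls.

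Of the 9 genes, all of which had enough reads to be tested, TJP3, CLDN3 and F11R rose with cadmium, CLDN1 fell, and 5 did not pass (edgeR quasi-likelihood test, Benjamini-Hochberg adjusted p under 0.05 over 13663 genes). Over all genes tested, 8.85% were called higher and 7.66% lower, or 16.5% in either direction. TJP3 rose 5.89-fold and CLDN3 2.10-fold from low levels, F11R rose 1.505-fold, and CLDN1, the most abundant of the 9, stood at 0.620 of its control level. The median log2 fold change was 0.65 over the 9 genes, against 0.0019 over all genes tested. In CPM, both cadmium libraries lay above both controls for 5 of the 9 genes and below both for 1. Of all tested genes 31.3% lay wholly above and 30.8% wholly below, or 62.1% in either direction, so that the number of the 9 without overlap stands close to the background. Without control replicate 1 the median over the 9 was 0.37, and without control replicate 2, 5 of the 9 were higher, when 13.8% of all genes tested were called higher. A group left with 1 library in this way is assumed to vary like the other group.

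**Figure D1:**
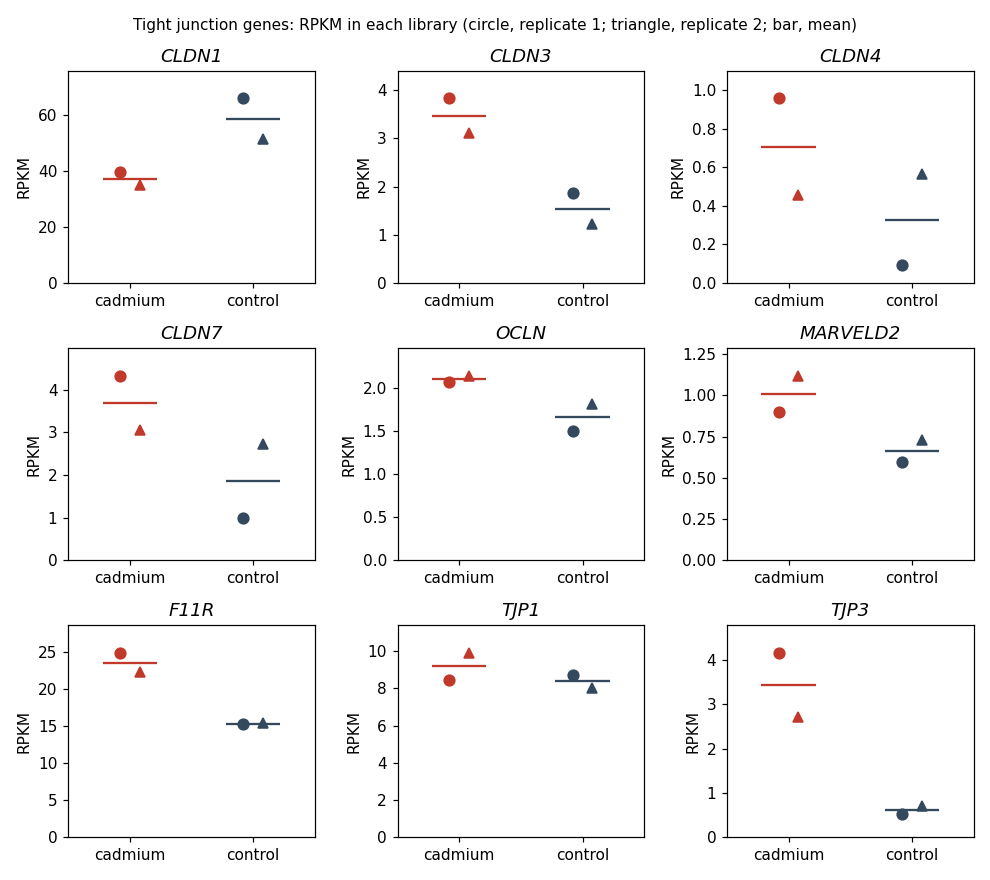
Level of each of the 9 tight junction genes in RPKM (reads scaled to transcript length and library size, vertical axes from 0), with the cadmium libraries left and the controls right; circles are replicate 1, triangles replicate 2 and bars the mean of 2. TJP3 reached 2.70 and 4.16 RPKM with cadmium, and the 2 control values for CLDN4 and CLDN7 lie far apart.

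The study's title concerns the repressor SNAI1, and SNAI and ZEB factors bind the E-box letters CACCTG in promoters of epithelial genes. RefSeq promoter windows (GRCh38.p14, 250 bases before to 50 after a start site) were found for 8 of the 9 genes, F11R having none in the table, and those 8 genes had 14 windows. CACCTG on either strand, read as CACCTG or CAGGTG, occurred in 6 of the 14 windows and in 5 of the 8 genes, against 20.6% of all 35116 windows. Genes with several windows had more chances of a match. The 5 genes were TJP3, CLDN3, CLDN7, OCLN and TJP1, of which TJP3 and CLDN3 rose with cadmium and the others did not pass. The match of TJP1, at position -88, is not shown, although its mean was also higher with cadmium (71.9 CPM, against 66.9 CPM in controls). Further matches of CLDN7 at -135 and -9 and of OCLN at -33 and 36 are not listed either. A match is a description of sequence, not of binding. The matches shown were picked from TJP3 and CLDN3, which rose, and from CLDN7 and OCLN, which had higher means with cadmium. They cannot show whether a match goes with a rise, which was not tested. They are given 5′ to 3′ on the gene's strand to place the letters, with the E-box in capitals.
TJP3, position -7 from its start site, chr19:3721718-3721747, plus strand: gaggaagaggggCAGGTGcagccgggagct
CLDN3, position 37, chr7:73770221-73770246, minus strand: caaagccacaggCAGGTGcaggcgca
CLDN7, position -174, chr17:7262635-7262664, minus strand: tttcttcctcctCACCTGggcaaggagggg
CLDN7, position -20, chr17:7262481-7262510, minus strand: cctacatatactCAGGTGcgccccacctgt
CLDN7, position 6, chr17:7262456-7262485, minus strand: cctgtccgcccgCACCTGctggctcacctc
OCLN, position -133, chr5:69492645-69492674, plus strand: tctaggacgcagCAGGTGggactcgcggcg

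One window of CLDN7 held 5 matches, the largest number among the 14, and those at -20 and 6 flank a further match at -9. No match lay in the windows of CLDN1, CLDN4 or MARVELD2, which says only that these letters are not in those windows. Other motifs were searched on either strand in the same windows, without scoring overlaps between motifs. The grainyhead-like letters AACCGG occurred in 4 of the 14 (7.23% of all windows), the AP-1 letters TGANTCA in 1 (7.71%), and the metal response letters TGCACNC or TGCGCNC in 7 (29.6%).

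Among the scaffold genes, TJP3 was higher with cadmium while TJP1 did not pass. TJP3 (chromosome 19, 3721697 to 3750811 in hg19) encodes an epithelial zonula occludens scaffold. It had 442 and 150 reads in the cadmium libraries, against 49 and 20 in the controls. These reads gave 4.16 and 2.70 RPKM with cadmium, against 0.538 and 0.698 RPKM in controls, so the groups were well apart and the lowest cadmium library stood 3.996-fold above the highest control in CPM. The fitted log2 fold change of TJP3 was 2.56 (SE 0.28), which passed with an adjusted p of 0.00313 (edgeR) and was the 64th largest fitted rise among the genes tested. In the authors' deposited table the log2 ratio of TJP3 is 1.59, with 6.98e-10 as its adjusted p. The mean RPKM values of TJP3 in the authors' deposited table, 3.43 with cadmium and 0.618 in controls, give a log2 ratio of 2.47. The deposited log ratios of the low genes thus lie closer to 0 than the deposited means, as in CLDN3 at 0.60 against 1.17 in the authors' deposited table. Its last 41 bases overlap APBA3 on the opposite strand, and without stated strand use reads there cannot be told apart. The log2 fold change of APBA3 was 0.33 (edgeR, adjusted p = 0.0643).

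TJP1 (chromosome 15, 29992357 to 30114706), the widely expressed scaffold of the family, had 8.44 and 9.90 RPKM with cadmium, against 8.71 and 8.03 RPKM in controls. The groups overlapped. Its log2 fold change was 0.096 with a 95% interval from -0.16 to 0.35 (adjusted p = 0.592, edgeR). Per library, TJP3 stood at 0.493 and 0.273 of the TJP1 level (RPKM) with cadmium, against 0.0617 and 0.0870 in controls. A ratio of this kind cannot reach an exact permutation p below 0.333 with 2 libraries against 2, and it was not tested.

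**Figure D2:**
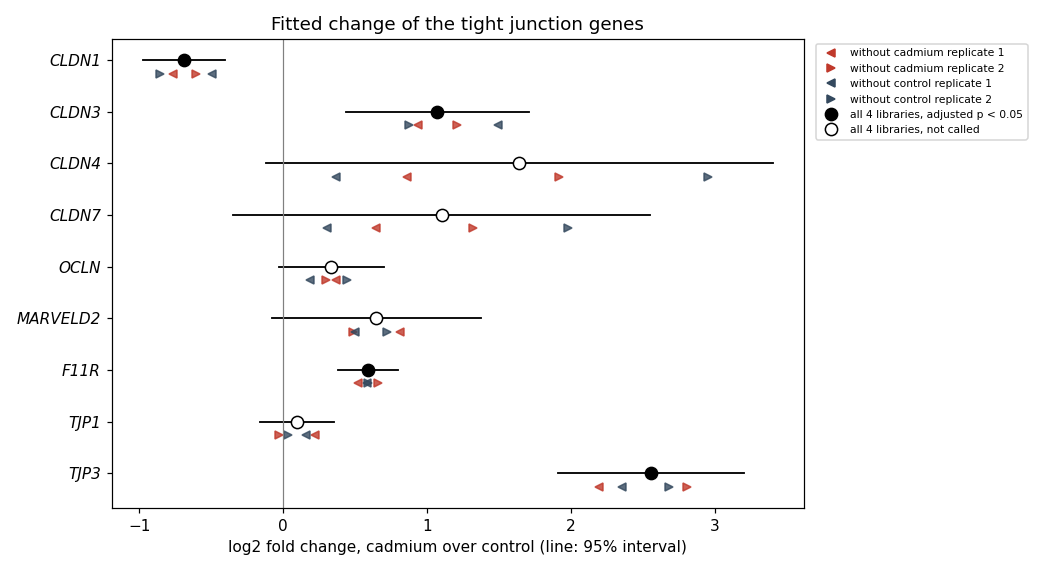
Fitted log2 fold change of each tight junction gene, cadmium over control (horizontal axis), with its 95% interval; filled circles passed an adjusted p of 0.05 and open circles did not, and triangles below each line are the values without 1 library. The values for CLDN4 and CLDN7 spread widely, from 0.37 to 2.95 and from 0.30 to 1.98, and those for F11R from 0.52 to 0.66.

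The claudins moved in both directions. CLDN1 (chromosome 3, 190023490 to 190040235), a claudin needed for the epidermal barrier in mice, had 4673 and 2152 reads with cadmium, against 6787 and 1718 reads in controls. Its level was 39.6 and 34.9 RPKM with cadmium, against 65.8 and 51.5 RPKM in controls. Both cadmium libraries thus lay below both controls, and the controls differed more from each other than the cadmium libraries did. CLDN1 fell, with a log2 fold change of -0.69 (SE 0.12; edgeR, adjusted p = 0.0123), and without control replicate 1, where it was highest, it fell by 0.50 (adjusted p = 0.00878, within a range from 1.37e-05 to 0.0455 over 14 alternatives). For CLDN1 the authors' deposited table has a log2 ratio of -0.64 (adjusted p = 3.45e-05).

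CLDN3 (chromosome 7, 73183327 to 73184600), a sealing claudin of many epithelia, had 167 and 71 reads with cadmium, against 71 and 15 reads in controls. It stood at 3.83 and 3.12 RPKM with cadmium, against 1.87 and 1.22 RPKM in controls, with no overlap between the groups. CLDN3 rose, with a log2 fold change of 1.07 (SE 0.28; edgeR, adjusted p = 0.0358). The call was close to the threshold: it was lost without cadmium replicate 1 (adjusted p = 0.232), without cadmium replicate 2 (adjusted p = 0.0716) and with DESeq2 (adjusted p = 0.0803), within a range from 0.00790 to 0.232 over 13 alternatives. The authors' deposited table lists CLDN3 with an adjusted p of 0.0643.

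CLDN7 and CLDN4, claudins of simple and airway epithelia, had higher means with cadmium but overlapped between the groups in CPM. CLDN7 (chromosome 17, 7163222 to 7166512) had 280 and 91 reads with cadmium, against 50 and 52 in controls, although control replicate 2 was the much shallower library. Its level was 4.33 and 3.05 RPKM with cadmium, against 0.997 and 2.73 RPKM in controls, without overlap in this unit. In CPM, CLDN7 had 9.15 and 5.76 with cadmium, against 1.92 and 6.18 in controls, and overlapped. The log2 fold change was 1.10, with a 95% interval from -0.35 to 2.55 (adjusted p = 0.248, edgeR). The value rests on which control is kept. It was 1.98 without control replicate 2 (edgeR, adjusted p = 0.000626) and 0.30 without control replicate 1 (edgeR, adjusted p = 0.557), and in both fits the spread within a group comes from the cadmium pair alone. CLDN7 adjusted p-values ran from 0.000626 to 0.705 over 14 alternatives. By 38 bases it overlaps ELP5 on the opposite strand, and the log2 fold change of ELP5 was -0.048 (edgeR, adjusted p = 0.734). In GENCODE v29 a gene at the same locus, AC003688.1, holds 8.25% of the 50-base stretches of CLDN7.

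CLDN4 (chromosome 7, 73245193 to 73247023) had 60 and 15 reads with cadmium, against 5 and 10 in controls, and 0.958 and 0.459 RPKM with cadmium, against 0.0914 and 0.565 RPKM in controls. At these counts its log2 fold change of 1.64 had a 95% interval from -0.12 to 3.40 (adjusted p = 0.172, edgeR). It was 2.95 without control replicate 2 (edgeR, adjusted p = 0.00454), against a lone control of 5 reads, and 0.37 without control replicate 1, the spread again coming from the cadmium pair alone. The adjusted p-values ran from 0.00454 to 0.721 over 12 alternatives. CLDN3 and CLDN4 lie on the same chromosome and shared few sequences. Of the 50-base stretches in GENCODE v29 transcripts of CLDN3, 1.80% also occurred in CLDN4.

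Within the 23 claudin rows of the tables, CLDN1 was not the most abundant. CLDN11, a claudin best known from myelin and testis, singled out here after its values were seen, had 109 and 115 RPKM with cadmium, against 88.5 and 117 RPKM in controls, and overlapped between groups (log2 fold change 0.10, adjusted p = 0.621, edgeR). The summed claudin level was 178 RPKM in each cadmium library, against 175 and 189 RPKM in controls, so it did not separate the groups. CLDN1 supplied 22.3% and 19.6% of it with cadmium, against 37.6% and 27.3% in controls. CLDN3, CLDN4 and CLDN7 together supplied 5.13% and 3.72% with cadmium, against 1.69% and 2.39% in controls. Neither share overlapped between the groups, and with 2 libraries against 2 the shares were not tested. Of all genes tested, 62.1% had no overlap in CPM. CLDN4 alone supplied 0.539% and 0.257% with cadmium, against 0.0522% and 0.299% in controls, and overlapped. The shares of CLDN3 and CLDN7 did not overlap, although CLDN7 did in CPM.

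**Figure D3:**
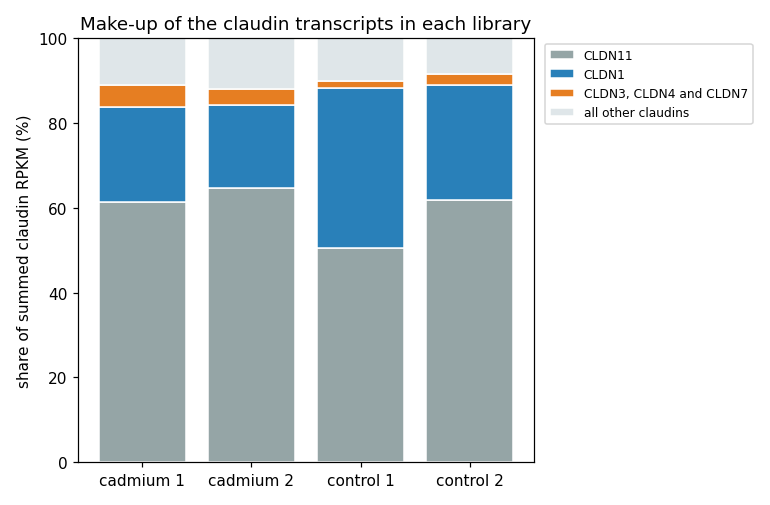
Share of the summed claudin RPKM (vertical axis, percent) supplied by CLDN11, by CLDN1, by CLDN3, CLDN4 and CLDN7 together and by all other claudins, 1 stacked bar for each library. The CLDN1 share is 22.3% and 19.6% in the cadmium libraries, against 37.6% and 27.3% in the controls, and CLDN11 makes the largest share in each bar.

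Several claudin rows were silent. CLDN8, CLDN14, CLDN17, CLDN19 and CLDN22 had 0 reads in each of the 4 libraries, which allows a level of up to 0.356 CPM in the shallowest one. CLDN18, a lung claudin, had 23 and 12 reads with cadmium, against 6 and 0 in controls, and did not pass (adjusted p = 0.0676, edgeR). CLDN12 had 11.9 and 13.2 RPKM with cadmium, against 10.7 and 9.40 RPKM in controls, more than CLDN3, CLDN4 or CLDN7. It did not pass either (log2 fold change 0.28, edgeR, adjusted p = 0.128) and supplied 6.68% and 7.40% of the claudin RPKM with cadmium, against 6.09% and 4.98% in controls. These genes were also named after their values were seen.

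Of the other membrane proteins, F11R rose and OCLN and MARVELD2 did not pass. F11R (chromosome 1, 160965001 to 160991133) had 4102 and 1917 reads with cadmium, against 2198 and 719 reads in controls. It stood at 24.8 and 22.2 RPKM with cadmium, against 15.2 and 15.4 RPKM in controls, the closest pair of control values among the 9 genes relative to their mean. F11R rose, with a log2 fold change of 0.59 (SE 0.090; edgeR, adjusted p = 0.00788), and passed in each of 14 alternatives (adjusted p from 2.95e-05 to 0.0461). The authors' deposited table has a log2 ratio of 0.55 for F11R (adjusted p = 4.66e-05). In GENCODE v29 a gene at the same locus, AL591806.3, holds 34.7% of the 50-base stretches of F11R, and 1.29% of them occurred away from the locus.

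OCLN (chromosome 5, 68800004 to 68853931) had 2.07 and 2.15 RPKM with cadmium, against 1.51 and 1.82 RPKM in controls. The groups did not overlap, but the gap was small: the lowest cadmium library stood 1.12-fold above the highest control in CPM. Its log2 fold change was 0.34, with a 95% interval from -0.029 to 0.70 (adjusted p = 0.179, edgeR). OCLN has a partial copy, and 7.79% of the 50-base stretches in its GENCODE v29 transcripts also occurred in the pseudogene OCLNP1. In all, 8.80% of them occurred away from the locus. How reads from shared stretches were counted is not given, so the effect on the count of OCLN is not known. MARVELD2 (chromosome 5, 68710939 to 68737890) had 65 and 42 reads with cadmium, against 37 and 14 in controls, or 0.899 and 1.12 RPKM with cadmium, against 0.599 and 0.730 RPKM in controls. Its groups did not overlap either, and its log2 fold change of 0.65 had a 95% interval from -0.081 to 1.37 (adjusted p = 0.193, edgeR). The ratio of MARVELD2 to OCLN in RPKM was 0.435 and 0.522 with cadmium, against 0.398 and 0.402 in controls.

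By mean RPKM the order of the 9 genes began in both groups with CLDN1, F11R and TJP1, whose ranges over 2 libraries did not overlap. With cadmium CLDN1 averaged 37.2 ± 3.29 RPKM, against 58.6 ± 10.1 RPKM in controls (SD, n = 2 each). F11R averaged 23.5 ± 1.84 RPKM with cadmium, against 15.3 ± 0.120 RPKM in controls. The lower ranks were less distinct. With cadmium CLDN7, CLDN3 and TJP3 overlapped with their neighbours, at means of 3.69, 3.48 and 3.43 RPKM, and stood above OCLN and MARVELD2. In controls CLDN7, OCLN and CLDN3 overlapped at means of 1.86, 1.66 and 1.54 RPKM, and MARVELD2, TJP3 and CLDN4 overlapped at 0.664, 0.618 and 0.328 RPKM. TJP3 was thus in rank 6 with cadmium and in rank 8 in controls. For CLDN7 the deposited RPKM did not follow the reads exactly: reads per RPKM, relative to genes with 1 transcript, differed by 18.0% between libraries, against 6.41% or less for the other 8 genes.

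**Figure D4:**
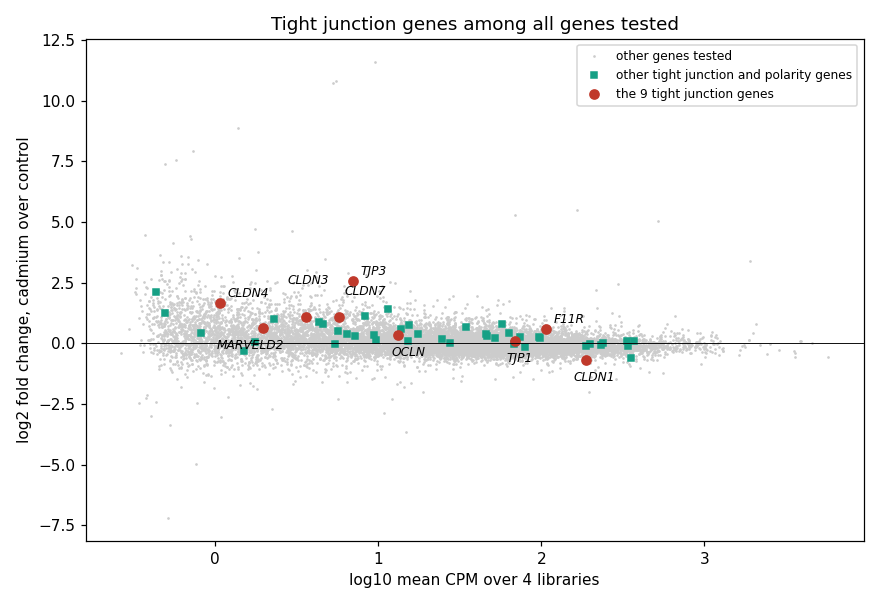
Log2 fold change, cadmium over control (vertical axis), against the log10 mean CPM over 4 libraries (horizontal axis) for all 13663 genes tested, with the 9 tight junction genes in red and other tight junction and polarity genes in green. TJP3 lies highest of the 9 at 2.56 and CLDN1 lowest at -0.69.

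Beyond the 9 genes, 57 other tight junction and polarity genes were listed, of which 51 had a read and 41 were tested. Of the 41, 7 rose, 1 fell and 33 did not pass, against 8.85% higher and 7.66% lower over all genes tested. Their median log2 fold change was 0.26. In CPM, both cadmium libraries lay above both controls for 22 of the 41 and below both for 3. Over all genes tested, 31.3% lay above and 30.8% below. The number of higher genes was 3 without cadmium replicate 1, when 2.71% of all genes tested were higher. It was 4 without cadmium replicate 2 (4.18% of all genes) and 12 without control replicate 2 (13.8%).

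The largest rise that passed was that of CXADR, an immunoglobulin-type adhesion protein of the junction that serves as a virus receptor. It had 507 and 257 reads with cadmium, against 140 and 64 in controls, and its log2 fold change was 1.39 (SE 0.20; edgeR, adjusted p = 0.00626). INADL, which encodes the multi-PDZ scaffold PATJ, rose by 1.13 on the log2 scale (edgeR, adjusted p = 0.0118), with means of 1.18 RPKM with cadmium, against 0.542 RPKM in controls. LLGL2, a basolateral polarity protein, rose by 0.80 (SE 0.11, adjusted p = 0.00583, edgeR), and PARD6G, an adaptor of atypical protein kinase C, by 0.77 (SE 0.15, adjusted p = 0.0143, edgeR).

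The angiomotin genes, whose products bind junction scaffolds and YAP, split in direction. AMOT rose by 0.66 (adjusted p = 0.0113, edgeR) and AMOTL1 by 0.41 (adjusted p = 0.0304, edgeR). AMOTL2 fell, with a log2 fold change of -0.62 (SE 0.089; edgeR, adjusted p = 0.00657) and 8497 and 4486 reads with cadmium, against 11975 and 3374 reads in controls. AMOTL2 was the 1 gene of the list that fell.

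**Figure D5:**
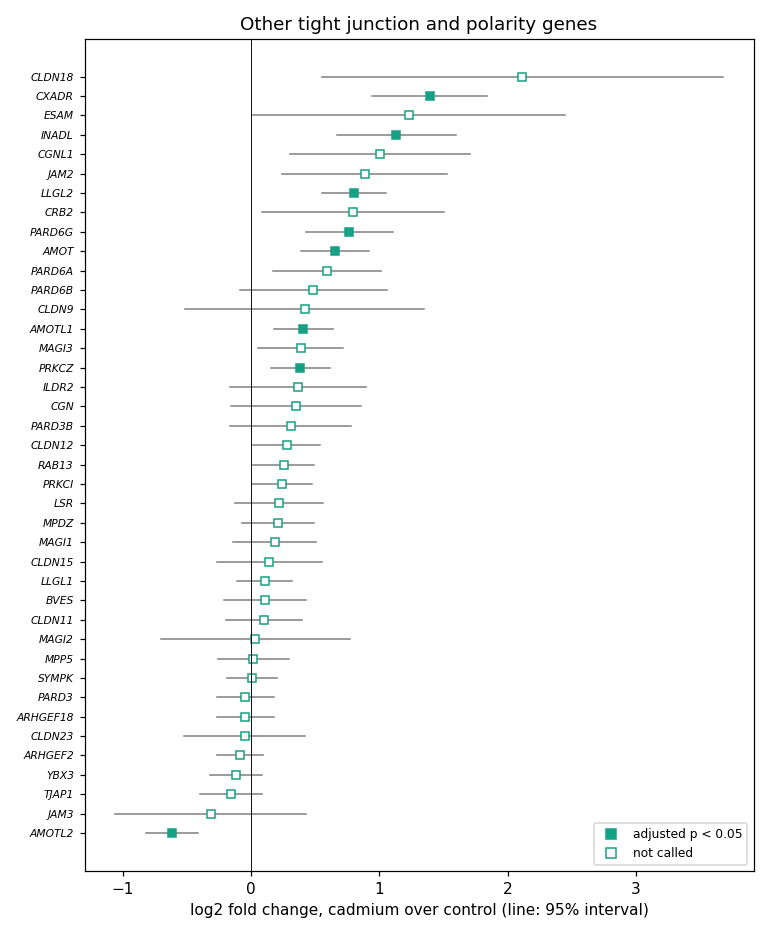
Fitted log2 fold change, cadmium over control (horizontal axis), of tested tight junction and polarity genes outside the set of 9, sorted by size, with 95% intervals; filled squares passed an adjusted p of 0.05. Of the filled squares 7 lie to the right of 0 and 1, AMOTL2 at -0.62, to the left.

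The genes whose pattern over the 4 libraries was most like that of TJP3 were TMC6, DENND2A, PIK3IP1, CDKN1C and TMPRSS3. Likeness was the Euclidean distance between mean-centred log2(CPM + 0.5) profiles, which ran from 0.300 to 0.470 for these 5 among 12748 genes. TMC6, the nearest, had 7.35 and 5.13 CPM with cadmium, against 1.08 and 1.43 CPM in controls. TJP3 itself had 14.4 and 9.49 CPM with cadmium, against 1.88 and 2.38 CPM in controls. Over 4 libraries this is a description of similar values only.

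Marker sums and signs of RNA quality were set beside these results. The nuclear-retained RNAs MALAT1, NEAT1, KCNQ1OT1 and MEG3, used as a sign of RNA quality, summed to 1267 and 1303 CPM with cadmium, against 720 and 895 CPM in controls. MEG3 had no read. MALAT1 rose by 0.87 on the log2 scale (edgeR, adjusted p = 0.00188) and NEAT1 by 0.59 (edgeR, adjusted p = 0.0228). KCNQ1OT1 did not pass (log2 fold change 0.88, edgeR, adjusted p = 0.238). The 10 epithelial markers summed to 960 and 983 CPM with cadmium, against 768 and 957 CPM in controls, and 2 of them, EPCAM and KRT15, rose. Of 6 endothelial markers PECAM1 had no read, and their sum was 3.79 and 3.48 CPM with cadmium, against 1.42 and 1.19 CPM in controls; 1 of them, TIE1, rose (edgeR, adjusted p = 0.0160). Leukocyte markers, with CD3E and LYZ at 0, summed to 94.7 and 88.2 CPM with cadmium, against 62.8 and 64.0 CPM in controls, and CD68, a lysosomal protein of macrophages and other cells, rose (edgeR, adjusted p = 0.00857). The 8 fibroblast and mesenchymal markers, with COL3A1 and DCN at 0, summed to 6131 and 5979 CPM with cadmium, against 7474 and 6281 CPM in controls. The 5 differentiated airway markers with a row, with SCGB3A1 at 0, summed to 1.47 and 0.823 CPM with cadmium, against 0.538 and 0.831 CPM in controls, and overlapped between the groups. The part of these in the tight junction results was not tested. In bulk libraries, fewer cells with a transcript and less of it per cell cannot be told apart.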

How the data were processed

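Per the labels, total RNA of BEAS-2B cells was made into 4 libraries with a TruSeq kit. STAR 2.4, DESeq2, DESeq and the build hg19 are named, without their roles, per the submitters' processing notes. Counter, annotation release and use of strand: not given in the sources used here. Per the file headers the authors deposited, for each library, raw read counts and RPKM per RefSeq gene. The authors' deposited comparison table holds group means of RPKM, log ratios and p-values with their adjustment, from a comparison whose tool is not tied to it. The authors' deposited log ratio is taken as log2 (cadmium over control): regressing log2 ratios of mean RPKM on it gave a slope of 1.11 (1781 genes, control mean above 50 RPKM).

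Counts were joined by RefSeq identifier and tested with edgeR 4.0.16 in R 4.3.3 (filterByExpr, TMM scaling, group alone, robust quasi-likelihood test), with Benjamini-Hochberg adjustment over 13663 genes, a threshold of 0.05, and limma 3.58.1 and DESeq2 1.42.0 as alternatives. The SE came from the F statistic, and the 95% intervals are not adjusted. CPM uses TMM factors. The procedure was tested on simulated data. The members, gene lists, motifs and tests were chosen with earlier results of these data known. Named genes were the 9 members, up to 6 listed genes per direction with the largest passing change, the 5 genes nearest to the member with the largest passing change, and genes that overlap or copy a member. Cell type and RNA quality markers are named for their level, others are marked in the text, and some listed genes are not reported here. Promoter windows are RefSeq's (GRCh38.p14). Protein features, foreseen in the design, were not analysed here.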

Additional observations from a re-analysis of the deposited data

How the results depend on the processing

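The settings tried were those of a replicate block, DESeq2 size factors, library size alone, no filter, a filter of 5 CPM in 2 libraries, each library left out, DESeq2, limma-voom, counts thinned to 8609243 reads, limma on log2(RPKM + 0.1) and log2(RPKM + 1), and an adjusted p of 0.01. TJP3, F11R and CLDN1 kept their direction and passed at 0.05 in each of 14 alternatives, TJP3 between 1.44 and 2.80 on the log2 scale, the low end with a pseudocount of 1. Leaving out 1 library gave a median of 0.37 to 0.72 over the 9 genes and a median of 0.24 to 0.32 over the other listed genes. The median of the 9 was 0.50 with the stricter filter, which left 6 of them, and 0.37 with log2(RPKM + 1). The median of the other listed genes was 0.31 with library size alone, which moved the median of all genes to 0.060, and 0.21 with log2(RPKM + 1). Of these other genes 12 were higher with no filter (9.09% of all genes), 4 with log2(RPKM + 0.1) (4.57%) and 2 at an adjusted p of 0.01 (1.71%). At that threshold edgeR called 0 of the 9 lower, when 1.09% of all genes tested were lower. CLDN1 had an unadjusted p of 0.000504 (edgeR). DESeq2 and limma-voom each called 1 lower at 0.05, when 7.16% and 8.84% of all genes tested were lower. TJP1 ran from -0.028, a reversal, without cadmium replicate 2 to 0.22 without cadmium replicate 1. Except where named, the cause was not tested. With the replicate number as a block 3 of the 9 were higher and 1 lower, and no call among them changed. In that fit 7.85% of all genes tested were higher and 5.94% lower. The differences between replicates 1 and 2 were only weakly and inversely related between the groups (correlation -0.19 across genes). A crossed pairing, added after seeing the data, gave 4 higher and 1 lower, when 11.4% of all genes tested were higher and 10.8% lower. CLDN4 had 5 to 60 reads and did not enter the test on thinned counts.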
